A study of Mus musculus with 9 samples.

Results

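Hair keratins and keratin-associated proteins build the hair shaft and the sheath around it. The members were all probe sets with 1 gene symbol whose symbol starts with Krtap, or is Krt25 to Krt28, Krt31 to Krt36, Krt71 to Krt75 or Krt81 to Krt86. The rule uses symbols only and gave 58 of 18193 genes, measured by 63 of the 45101 probe sets: 20 keratin genes with 1 probe set each, and 38 Krtap genes with 43 probe sets. Another 6 probe sets list a member together with other genes and were left out.

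Ear skin was taken from C57BL/6 mice 6 h after a compound was put on the ear surface, and its mRNA was read on 3 arrays per group. The DNFB group received dinitrofluorobenzene, which the labels call an allergen, and the BAC group benzalkonium chloride, which they call an irritant, both on the right ear. The vehicle group received acetone with olive oil on the left ear, so the side of the ear goes with the treatment. The sources used here state no dose. Replicates carry numbers, and nothing says that they are separate animals, so a p-value reflects the spread among these arrays, which may be technical. Whether a vehicle ear and a treated ear came from one animal is not stated either, so the groups may share animals. Values are MAS5 signals, a linear intensity scaled to one target per array, and 1 array is 1 replicate. In whole ear skin, fewer cells of a type and less RNA per cell cannot be told apart.

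Keratins are filament proteins that pair as 1 acidic type I with 1 basic type II chain. In the hair follicle, Krt25 to Krt28 and Krt71 to Krt74 form the filaments of the inner root sheath, Krt75 those of the companion layer next to it, and Krt31 to Krt36 and Krt81 to Krt86 those of the hair shaft. Keratin-associated proteins fill the space between the shaft filaments and cross-link them through cysteines, and a second type is rich in glycine and tyrosine (Krtap6, Krtap7, Krtap8, Krtap19, Krtap21 and Krtap22). As background, these genes are switched on late in the differentiation of shaft and sheath cells, during the growth phase of the hair cycle.

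The genes lie in clusters. In RefSeq GRCm38.p6 the inner root sheath and type I shaft keratins Krt25 to Krt36 lie on chromosome 11 and the type II keratins Krt71 to Krt86 on chromosome 15. Of the Krtap probe sets, 10 belong to chromosome 11, 23 to chromosome 16, 6 to chromosome 7, 3 to chromosome 10 and 1 to chromosome 1. RefSeq promoters, from 250 bases before to 50 after the start of the gene, were at hand for 51 of the 58 genes. The letters TATAAA stood on the gene strand between 50 and 11 bases before the start in 32 of 51 member promoters (62.7%), and in 2.6% of 27025 promoters of all genes. On either strand of the whole window they were found in 80.4% of member promoters and 14.2% of all. The letters CTTTGA, searched because LEF1 is known to bind such sites in hair keratin promoters, were on either strand in 29.4% of member promoters and 16.2% of all. Neither motif contains the other, and a match is a description, not a binding site. The 250 bases before the start are shown for 4 members, 2 of chromosome 16 and 2 of chromosome 11, whose signals went together from array to array. Capitals mark both motifs on either strand.

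Krtap15, chr16:88828759-88829008, plus strand, GRCm38.p6: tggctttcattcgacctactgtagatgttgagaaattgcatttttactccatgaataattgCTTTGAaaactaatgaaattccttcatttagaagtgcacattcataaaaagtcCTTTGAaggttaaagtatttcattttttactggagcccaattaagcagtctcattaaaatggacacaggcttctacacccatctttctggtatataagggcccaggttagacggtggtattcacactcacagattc
Krtap8-1, chr16:89487953-89488202, minus strand, GRCm38.p6: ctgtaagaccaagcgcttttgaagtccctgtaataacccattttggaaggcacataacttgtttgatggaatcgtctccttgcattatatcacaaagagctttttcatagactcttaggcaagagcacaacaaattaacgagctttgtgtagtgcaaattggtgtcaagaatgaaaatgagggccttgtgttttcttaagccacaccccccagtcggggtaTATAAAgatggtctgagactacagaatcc
Krt31, chr11:100050552-100050801, minus strand, GRCm38.p6: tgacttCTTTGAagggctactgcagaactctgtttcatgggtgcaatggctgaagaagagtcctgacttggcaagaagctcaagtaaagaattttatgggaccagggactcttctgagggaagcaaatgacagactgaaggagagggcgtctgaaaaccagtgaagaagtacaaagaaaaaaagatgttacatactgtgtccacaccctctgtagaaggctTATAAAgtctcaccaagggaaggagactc
Krtap3-1, chr11:99566631-99566880, minus strand, GRCm38.p6: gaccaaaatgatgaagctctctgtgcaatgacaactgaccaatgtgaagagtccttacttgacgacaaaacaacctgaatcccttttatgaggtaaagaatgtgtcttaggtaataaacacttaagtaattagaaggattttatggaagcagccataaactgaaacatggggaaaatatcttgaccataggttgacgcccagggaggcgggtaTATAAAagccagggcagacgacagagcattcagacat

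In these windows TATAAA began 29 bases before the start in Krtap8-1 and Krt31 and 37 bases before it in Krtap3-1. CTTTGA began 189 and 136 bases before the start in Krtap15 and 244 bases before it in Krt31.

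The members differed widely between arrays of the same treatment. Most were near background in DNFB replicate 2, BAC replicates 1 and 3 and vehicle replicate 1, and several times higher in the other arrays of the same groups. The median signal of the 63 probe sets was 162, 27.5 and 112 in DNFB replicates 1 to 3, 35.4, 152 and 24.5 in BAC replicates 1 to 3, and 36.8, 123 and 148 in vehicle replicates 1 to 3. Each group thus held at least 1 array with low and at least 1 with high member signals, and the groups overlapped. The median of all probe sets lay between 71.2 and 86.3 in the 9 arrays and showed no such split.

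Set against the 40th percentile of each array, a level between 46.2 and 60.7, the member probe sets above it numbered 51, 17 and 53 of 63 in the DNFB arrays. They numbered 23, 55 and 17 in the BAC arrays and 26, 51 and 50 in the vehicle arrays. DNFB replicate 2 was the lowest DNFB array for 56 of the 63 probe sets. BAC replicate 2 was the highest BAC array for 55, while the lowest was BAC replicate 3 for 32 and BAC replicate 1 for 30. Vehicle replicate 1 was the lowest vehicle array for 52.

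**Figure D1:**
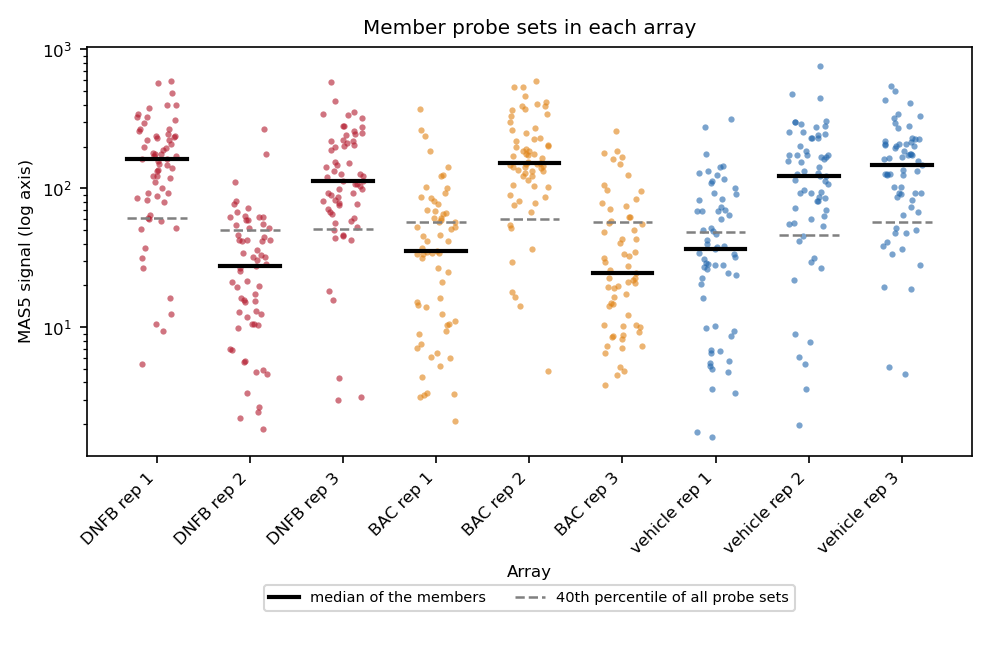
MAS5 signal (log axis) of the 63 member probe sets in each array, 1 point per probe set, with their median (black line) and the 40th percentile of all probe sets (grey dashes). The medians are 162, 27.5 and 112 in the DNFB arrays, 35.4, 152 and 24.5 in the BAC arrays and 36.8, 123 and 148 in the vehicle arrays, so arrays with low and with high members occur in each group.

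The ratio of 3' to 5' probe signal of a control transcript rises when RNA is degraded. For Gapdh it was 0.841, 1.36 and 0.943 in the DNFB arrays, between 0.917 and 0.932 in the BAC arrays and between 0.856 and 0.880 in the vehicle arrays. It was highest in DNFB replicate 2, where the members were low. For actin it was 1.09, 1.28 and 1.23 in the DNFB arrays. It lay between 1.18 and 1.22 in the BAC arrays and between 1.051 and 1.099 in the vehicle arrays. The actin ratio too was highest in DNFB replicate 2, followed by DNFB replicate 3, where the members were high. The 3 BAC arrays differed little in both ratios, and most members were low in BAC replicates 1 and 3 and high in BAC replicate 2. The part of RNA quality in the low arrays was not tested.

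The inner root sheath keratins had 7 probe sets. DNFB replicate 2 was lowest and vehicle replicate 1 lowest for all 7, and BAC replicate 2 highest for 6. Krt25, a type I keratin of the sheath, had a signal of 311, 44.5 and 585 in the DNFB arrays, 10.5, 404 and 32.4 in the BAC arrays and 64.6, 229 and 318 in the vehicle arrays. In the BAC group only replicate 2 was above the 40th percentile. Krt27, also type I, had 236, 46.4 and 155 in the DNFB arrays, 6.05, 130 and 3.83 in the BAC arrays and 33.7, 130 and 81.8 in the vehicle arrays. It was under 10 in BAC replicates 1 and 3 only. The type II partner Krt71 had 172, 41.6 and 241 in the DNFB arrays, 33.6, 264 and 14.8 in the BAC arrays and 101, 186 and 220 in the vehicle arrays. Krt72 and Krt73, type II as well, were also lowest in DNFB replicate 2 and vehicle replicate 1 and highest in BAC replicate 2 of their groups. In BAC replicate 1 they had 80.9 and 84.7, above its 40th percentile. Krt73 had 53.4 in vehicle replicate 2 beside 194 in vehicle replicate 3. Krt28 passed the 40th percentile in 1 array and Krt26 in none, and both were left out of the tests.

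Among type I shaft keratins the swing was wide in 4 of 7. Krt31 had 245, 10.4 and 222 in the DNFB arrays, 7.53, 187 and 14.2 in the BAC arrays and 22.6, 127 and 173 in the vehicle arrays. Krt33a had 222, 15.2 and 132 in the DNFB arrays, 3.13, 133 and 5.15 in the BAC arrays and 3.59, 123 and 128 in the vehicle arrays. Both had low values in the same 4 arrays and values above 120 in the other 5. Krt33b followed them, with 297, 21.5 and 220 in the DNFB arrays, 16.3, 201 and 21.2 in the BAC arrays and 28.0, 168 and 166 in the vehicle arrays. Krt34 differed in 1 array, with 102 in BAC replicate 1 beside 154 in BAC replicate 2 and 19.9 in BAC replicate 3. Krt35, a keratin of early shaft differentiation, was low in vehicle replicates 1 and 2 alike, at 60.1 and 55.9 beside 205 in vehicle replicate 3. Krt36 went its own way, with 140, 31.9 and 105 in the DNFB arrays, 41.8, 51.8 and 70.5 in the BAC arrays and 68.7, 26.9 and 19.6 in the vehicle arrays, so vehicle replicate 1 was its highest vehicle array. Krt32, of the shaft cuticle, kept between 110 and 277 in all 9 arrays.

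Type II shaft keratins were mixed. Krt86 swung like Krt31, with 188, 5.61 and 76.6 in the DNFB arrays, 15.3, 143 and 7.34 in the BAC arrays and 20.4, 143 and 135 in the vehicle arrays. Krt81 had the highest mean signal of the tested keratins and moved least, with 485, 268 and 346 in the DNFB arrays, 372, 459 and 261 in the BAC arrays and 314, 275 and 430 in the vehicle arrays. Krt83 was lowest in DNFB replicate 2, at 15.8, but in the vehicle group it was lowest in replicate 2, at 55.7. Krt84 had 85.5, 72.2 and 15.6 in the DNFB arrays, 59.0, 81.4 and 97.8 in the BAC arrays and 109, 72.3 and 124 in the vehicle arrays, so its low array was DNFB replicate 3. Krt82 passed the 40th percentile in 1 array only. Krt75 of the companion layer kept between 61.8 and 150 in all arrays.

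Of the 43 Krtap probe sets, 35 had the order of most keratins: DNFB replicate 2 lowest of DNFB, BAC replicate 2 highest of BAC and vehicle replicate 1 lowest of vehicle. Krtap15, of the chromosome 16 cluster, had 572, 41.9 and 422 in the DNFB arrays, 60.7, 539 and 12.2 in the BAC arrays and 38.3, 765 and 503 in the vehicle arrays. Krtap3-1, of the chromosome 11 cluster, had 379, 4.62 and 143 in the DNFB arrays, 5.22, 171 and 6.50 in the BAC arrays and 6.85, 252 and 272 in the vehicle arrays. These 2 had the largest spread within groups of all tested genes.

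The glycine and tyrosine-rich Krtap8-1 had 592, 67.2 and 353 in the DNFB arrays, 52.7, 533 and 31.5 in the BAC arrays and 113, 447 and 549 in the vehicle arrays. Krtap21-1, of the same type, had 341, 19.8 and 340 in the DNFB arrays, 92.1, 591 and 9.28 in the BAC arrays and 129, 481 and 331 in the vehicle arrays. Krtap19-9b had 236, 5.74 and 249 in the DNFB arrays, 31.6, 420 and 8.68 in the BAC arrays and 69.2, 282 and 228 in the vehicle arrays. Of the 15 glycine and tyrosine-rich probe sets 12 had the order given above, as did 23 of the 28 other Krtap probe sets and 12 of the 20 keratin probe sets. By chromosome, the order was found in 8 of 10 Krtap probe sets of chromosome 11, 19 of 23 of chromosome 16, 4 of 6 of chromosome 7, 3 of 3 of chromosome 10 and the single one of chromosome 1.

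Other Krtap genes of chromosome 11 ran like Krtap3-1. Krtap4-6 had 326, 12.4 and 246 in the DNFB arrays, 41.6, 370 and 19.3 in the BAC arrays and 91.8, 243 and 209 in the vehicle arrays. Krtap17-1 had 269, 36.1 and 279 in the DNFB arrays, 25.1, 329 and 29.4 in the BAC arrays and 73.2, 292 and 230 in the vehicle arrays. Both stayed under 100 in 4 arrays, 1 of DNFB, 2 of BAC and 1 of vehicle, and above 200 in the others. Krtap9-3 was dimmer, between 1.83 in DNFB replicate 2 and 92.7 in vehicle replicate 2. Krtap31-1 departed from the order in the BAC group, where replicate 3 was highest at 162 beside 51.3 and 102 in BAC replicates 1 and 2. Krtap4-2 was below the filter.

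On chromosome 16, Krtap11-1 had 237, 21.1 and 281 in the DNFB arrays, 11.1, 177 and 7.29 in the BAC arrays and 9.37, 108 and 210 in the vehicle arrays. The glycine and tyrosine-rich Krtap6-2 had 258, 31.9 and 199 in the DNFB arrays, 14.4, 300 and 22.6 in the BAC arrays and 70.3, 245 and 283 in the vehicle arrays. Krtap22-2, of the same type, had 157, 4.73 and 42.2 in the DNFB arrays, 3.38, 150 and 10.2 in the BAC arrays and 31.1, 133 and 156 in the vehicle arrays. In these 3 genes BAC replicate 2 alone was above the 40th percentile of its array among the BAC arrays. Of the chromosome 16 probe sets with the order, that of Krtap19-4 varied least within groups, with signals between 77.3 and 107 in the DNFB arrays, 37.3 and 167 in the BAC arrays and 68.5 and 148 in the vehicle arrays. Outside these clusters, Krtap28-13 of chromosome 1 had 150, 51.5 and 108 in the DNFB arrays, 68.9, 173 and 78.2 in the BAC arrays and 51.9, 174 and 177 in the vehicle arrays.

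The cysteine-rich Krtap5 genes of chromosome 7 were uneven. The brighter Krtap5-1 probe set had 232, 12.9 and 151 in the DNFB arrays, 141, 368 and 106 in the BAC arrays and 133, 303 and 226 in the vehicle arrays, so its lowest value lay in DNFB replicate 2. Krtap5-5 kept between 33.2 and 122 in all 9 arrays. Krtap5-2 had 147, 26.6 and 87.0 in the DNFB arrays, 65.4, 197 and 43.5 in the BAC arrays and 46.9, 156 and 173 in the vehicle arrays. Krtap5-3 stayed at or below 20.7 in every array and Krtap5-4 passed the 40th percentile in 2 arrays. Krtap12-1 of chromosome 10 had 398, 42.4 and 213 in the DNFB arrays, 239, 394 and 178 in the BAC arrays and 278, 307 and 413 in the vehicle arrays. These values are of its brighter probe set, where DNFB replicate 2 alone stood apart. Krtap13 and both Krtap6-3 probe sets stayed at or below 77.6, and none of them was lowest in DNFB replicate 2.

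Probe sets of one gene did not always match. The second Krtap12-1 probe set was low in more arrays, with 136, 10.6 and 128 in the DNFB arrays, 57.6, 146 and 27.4 in the BAC arrays and 34.1, 116 and 187 in the vehicle arrays. One Krtap19-1 probe set was low in vehicle replicate 1, at 4.98, and the other was not, at 124. The dimmer Krtap5-1 probe set was lowest in BAC replicate 3, at 10.45, and had 42.2 in DNFB replicate 2. Krtap genes of a family are similar in sequence, and 6 member probe sets have a name ending in _s_at, _x_at or _a_at, which marks probes shared between transcripts, so levels of single family members are uncertain.

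**Figure D2:**
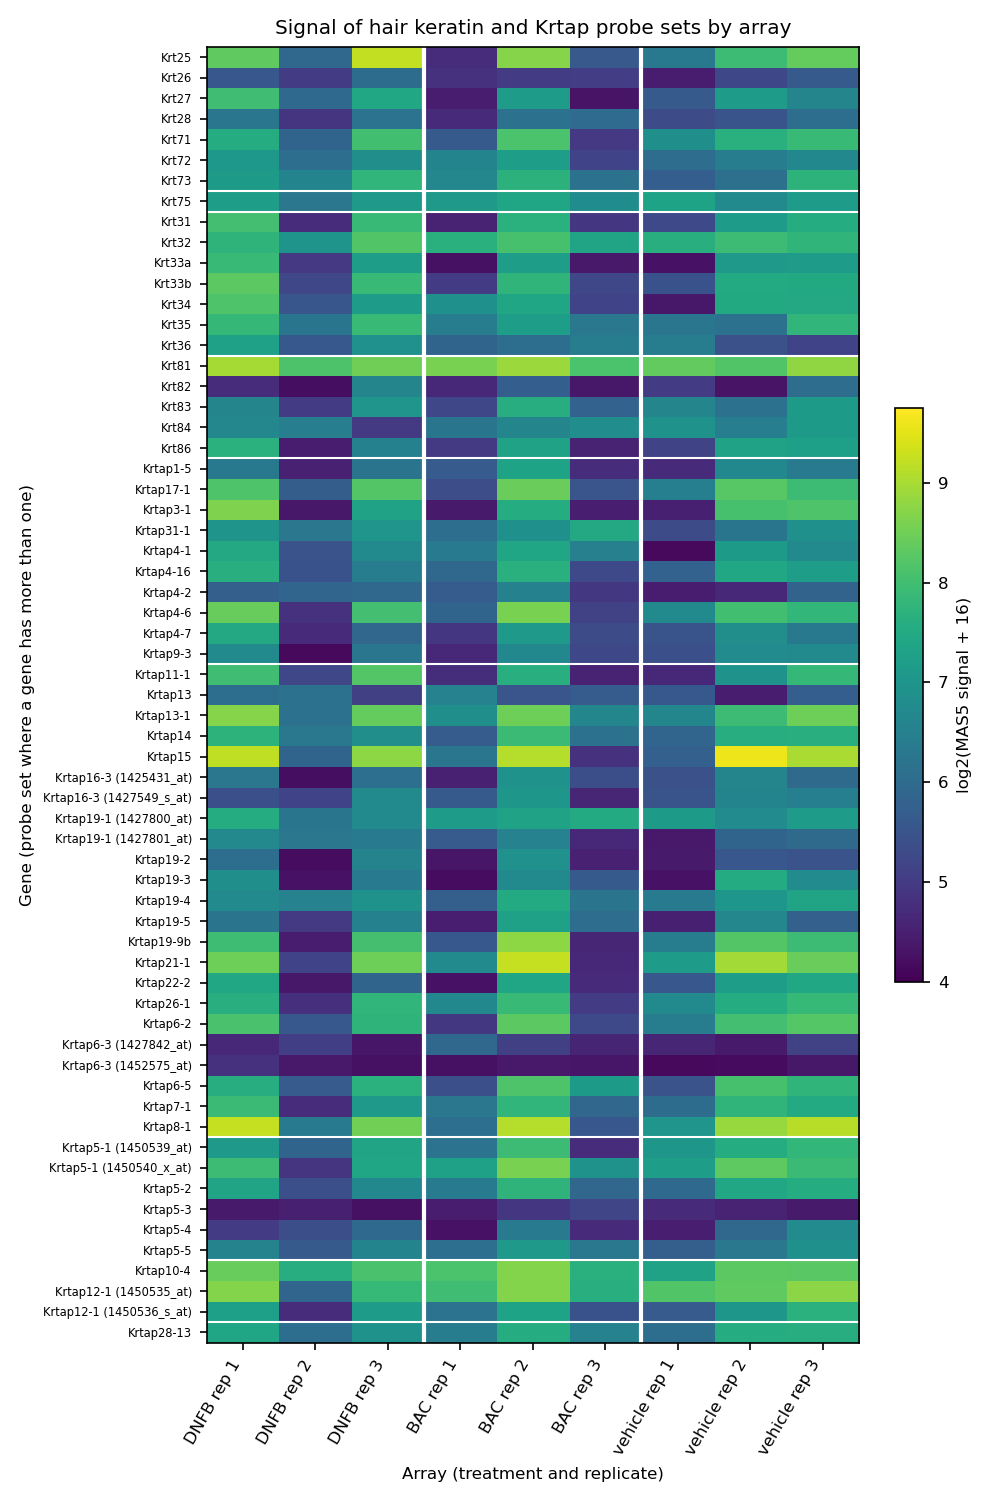
Heat map of log2(MAS5 signal + 16) for the 63 member probe sets (rows, by role and then by chromosome, separated by white lines) in the 9 arrays (columns, DNFB, BAC and vehicle). DNFB replicate 2, BAC replicates 1 and 3 and vehicle replicate 1 are dark for most rows, with a member median of 27.5, 35.4, 24.5 and 36.8.

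The spread was measured as the residual SD of log2(signal + 16) around the 3 group means. The filter on low values kept 49 of the 58 member genes. It asks for 3 bright arrays of any group, and 9 dim genes did not pass: Krt26, Krt28, Krt82, Krtap4-2, Krtap5-3, Krtap5-4, Krtap6-3, Krtap13 and Krtap19-2. The median residual SD was 1.14 in the 49 tested members and 0.23 in all 14122 tested genes. Dim genes vary more, so the level matters: it was 0.30 in the 7753 tested genes whose mean level lay within the range of the members, and 0.37 in the 1933 genes within their interquartile range. The 20 tested genes of largest residual SD were all members. The top of the ranking by residual SD, 5.01% of all tested genes, held 39 of the 49, and all 49 lay above the median gene.

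Krtap15 and Krtap3-1 led with a residual SD of 2.03 and 2.02, followed by Krtap19-9b at 1.82 and Krtap21-1 at 1.80. Krt25, at 1.68, was the most variable keratin. The smallest values were those of Krt81 and Krt75, both 0.38, each still above at least 77.4% of tested genes.

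**Figure D3:**
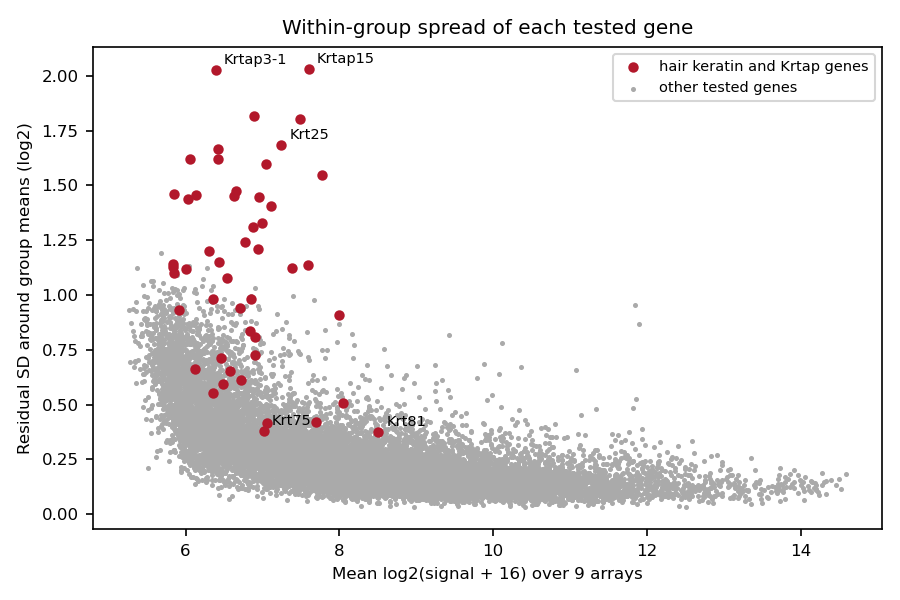
Residual SD around the group means against mean log2(signal + 16) for each of the 14122 tested genes, with the 49 tested members in red and the other genes in grey. Members fill the top of the plot, from Krtap15 at 2.03 downwards, while Krt81 and Krt75 at 0.38 lie within the grey cloud.

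A stricter pattern was counted after these values were seen. It asked that DNFB replicate 2 and vehicle replicate 1 be the lowest of their groups and BAC replicate 2 the highest of its group, each by at least 2-fold on the log2(signal + 16) scale from both other arrays. It was met by 26 of 14122 tested genes (0.184%), of which 23 were members. With a pseudocount of 64 it was met by 14 genes, all of them members. The order alone, at any size, was met by 41 of 49 tested members and by 4.09% of tested genes. The 3 other genes were Gm10228, Gm11559 and Vsig8, named after their values were seen. In RefSeq, Gm10228 lies on chromosome 16 and Gm11559 on chromosome 11, which also hold Krtap clusters. Vsig8, on chromosome 1, encodes an immunoglobulin-domain protein found in hair shaft cells. Its signal was 128, 43.5 and 164 in the DNFB arrays, 6.65, 108 and 24.8 in the BAC arrays and 35.8, 118 and 104 in the vehicle arrays. Of the probe sets that had several gene symbols or none listed, 3 met the pattern, and 1 of them lists Krtap6-1 with Gm10228 and 1110025L11Rik.

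DNFB was set against the vehicle to read the response to the allergen. No member passed limma at an adjusted p of 0.05, and 0 had an unadjusted p under 0.05, where 13.8% of all tested genes passed, 6.76% as higher and 7.08% as lower, and 3717 had such a p. By the probe set that stood for each gene, the arrays of both groups overlapped for every tested member, while 30.9% of tested genes did not overlap. The dimmer Krtap19-1 probe set, which did not stand for its gene, had no overlap. It had 61.8 to 88.3 in the DNFB arrays and 4.98 to 47.4 in the vehicle arrays. Its log2 change was 1.045 ± 0.551 (SE; limma adjusted p = 0.267 over all tested probe sets). The member changes ran from -1.09 to 0.93 on the log2 scale, 17 above 0 and 32 below, with a median of -0.19 beside 0.00 in all tested genes. The smallest p was that of Krt84, a type II keratin known from the shaft cuticle and the tongue, at a log2 change of -0.82 ± 0.40 (SE; limma adjusted p = 0.216). The largest rise was that of Krt36, at 0.93 ± 0.47 (adjusted p = 0.224). Krtap12-1 had -0.96 ± 0.49 (adjusted p = 0.23) and Krtap15 -0.19 ± 1.06 (adjusted p = 0.94). The 95% interval of the change holds both a 2-fold rise and a 2-fold fall for 23 of the 49 members and for 1.47% of all tested genes.

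The DNFB result leans on single arrays. Without DNFB replicate 2 the member median became 0.41 and 26 of 49 signs turned. Without DNFB replicate 1 the median was -0.53, and Krtap12-1 passed the test at -1.57 (limma adjusted p = 0.0341). It was the only one of 49 members to do so, where 11.5% of all tested genes passed in that fit.

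BAC was set against the same vehicle arrays to read the response to the irritant. Again no member passed limma and 0 had an unadjusted p under 0.05, where 14.2% of all tested genes passed, 6.59% as higher and 7.64% as lower, and 3912 had such a p. The arrays of the groups overlapped for every tested member, while 34.1% of tested genes did not overlap. Member changes ran from -1.43 to 0.75, 11 above 0 and 38 below, with a median of -0.43 beside -0.03 in all tested genes. Krt71 had -1.23 ± 0.66 (SE; limma adjusted p = 0.242), with a 95% interval from -2.63 to 0.17. Krtap6-2, a glycine and tyrosine-rich protein, had -1.40 ± 0.77 (adjusted p = 0.261), Krtap8-1 -1.41 ± 0.81 (adjusted p = 0.281) and Krtap15 -1.40 ± 1.06 (adjusted p = 0.425). The sheath keratin Krt27 had -1.16 ± 0.68 (adjusted p = 0.296). The dimmer Krtap5-1 probe set, which did not stand for its gene, had -1.19 ± 0.59 (limma adjusted p = 0.228 over all tested probe sets). The brighter Krtap5-1 probe set had -0.21.

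The median and the calls after BAC moved most with BAC replicate 2. Without it the member median was -1.07 and 4 of 48 tested members passed as lower, where 9.82% of all tested genes passed in that fit: Krt71 at -2.18 (limma adjusted p = 0.0151), Krtap6-2 at -2.46 (0.0241), Krtap8-1 at -2.50 (0.0318) and Krt27 at -2.09 (0.0328). The 2 BAC arrays left are those in which most members were near background.

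DNFB was set against BAC to read where allergen and irritant differed. No member passed limma, where 6.8% of all tested genes passed, 3.14% as higher and 3.66% as lower. Krt27 alone had an unadjusted p under 0.05, at a log2 change of 1.80 ± 0.68 (SE; limma adjusted p = 0.136), while 3049 of all tested genes had such a p. Changes ran from -0.87 to 1.80, 33 above 0 and 16 below, with a median of 0.31 beside 0.03 in all tested genes, and Krtap15 had 1.21 ± 1.06 (adjusted p = 0.553). Krtap5-1 had -0.87 by its brighter probe set and 0.49 by the dimmer one. The arrays overlapped for every tested member and not for 25.2% of tested genes. Without BAC replicate 2 Krt27 passed at 2.73 (adjusted p = 0.0169), where 3.68% of all tested genes passed in that fit, and without DNFB replicate 1 the member median turned to -0.12. The median SE of a member's change was 0.67 in each comparison, against 0.18 in all tested genes.

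**Figure D4:**
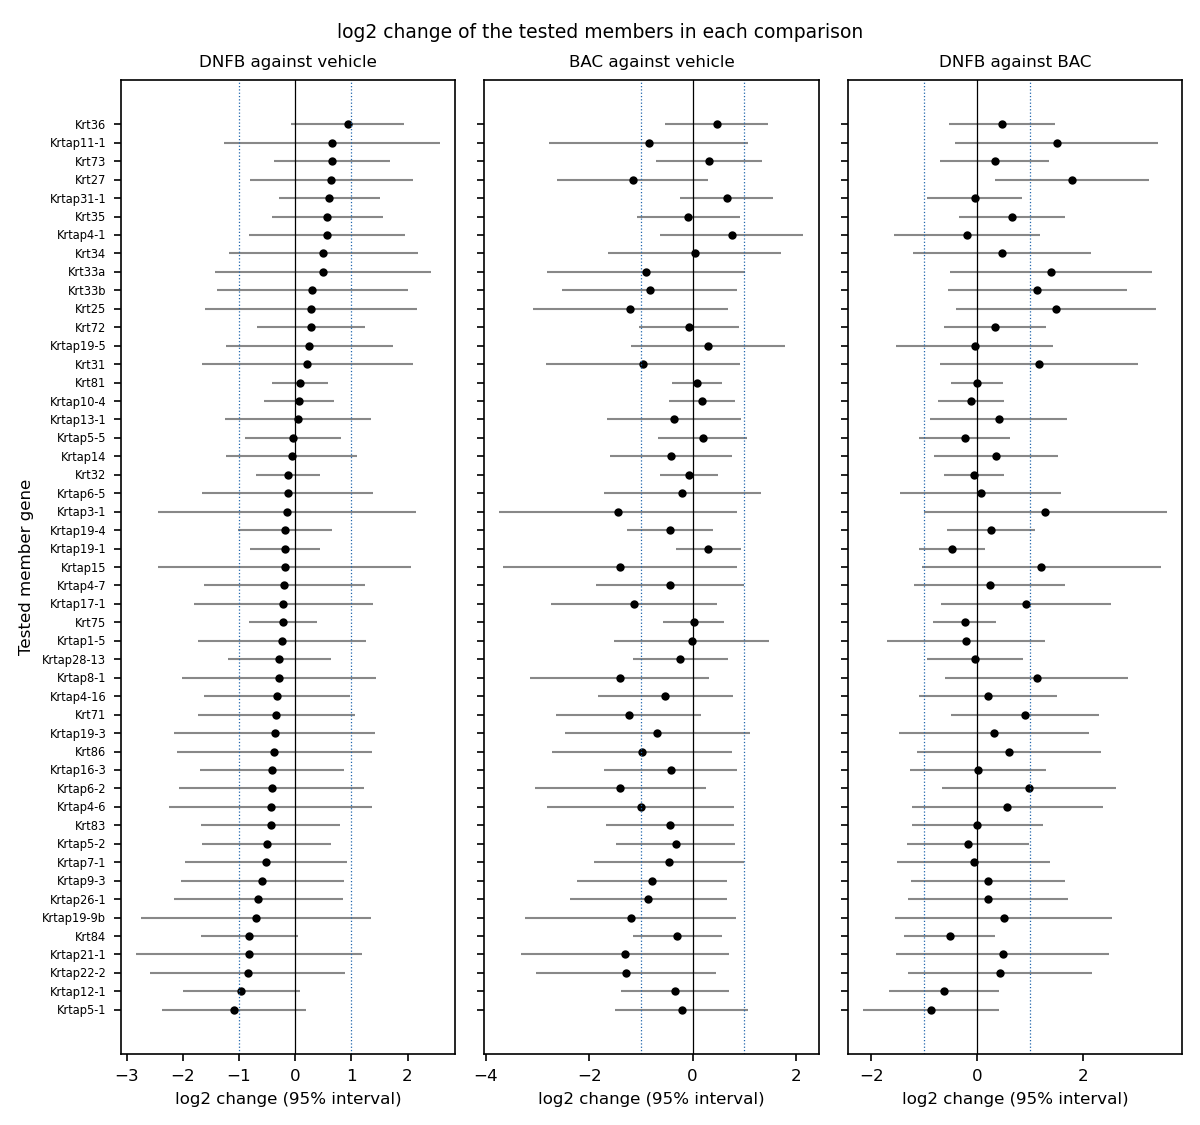
log2 change with its 95% interval (limma) for the 49 tested members in the 3 comparisons, ordered by the change in DNFB against vehicle, with dotted lines at a 2-fold rise and fall. Every interval holds 0 in both comparisons with the vehicle, and Krt27 alone lies above 0 throughout its interval in DNFB against BAC.

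Other genes of the hair follicle came from lists written with earlier results known. None of those tested met the 2-fold array pattern. That pattern was written from the member values and was met by 0.184% of all tested genes, and none in a list is near that share. The order alone was found in some list genes and in 4.09% of all tested genes. Some list genes changed with treatment. Over all tested genes 7.08% fell and 6.76% rose after DNFB, and 7.64% fell and 6.59% rose after BAC. These shares stand beside the counts of each list below, and a single call in a list is near them. Of 14 tested follicle transcription factors 5 fell and 1 rose after DNFB, and 5 fell and 1 rose after BAC. Gata3, Prdm1, Foxq1 and Foxp1 fell after both treatments, Vdr after DNFB and Msx1 after BAC, and Egr2 rose after both. None of the 14 met the 2-fold array pattern. Gata3, which in mice directs the inner root sheath lineage and is also made by immune cells, had 219, 379 and 339 in the DNFB arrays, 346, 425 and 256 in the BAC arrays and 977, 762 and 1070 in the vehicle arrays. It fell by 1.56 ± 0.21 after DNFB (SE; limma adjusted p = 0.00012) and by 1.42 ± 0.21 after BAC (limma adjusted p = 0.000254) on the log2 scale. Neither treated group overlapped the vehicle, while for each sheath keratin both did. Whole ear skin does not show whether this Gata3 signal came from the sheath or from other cells. Prdm1, a transcriptional repressor that acts in terminal differentiation, fell by 0.84 ± 0.14 and by 0.83 ± 0.14 in the same comparisons.

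Foxn1 and Hoxc13, which in mice are needed for hair keratin expression, were dim. Foxn1 had 93.6, 63.95 and 70.8 in the DNFB arrays, 99.3, 13.9 and 84.5 in the BAC arrays and 125, 94.2 and 130 in the vehicle arrays. It was lowest in BAC replicate 2, where the keratins were high. Hoxc13 was below the filter, with 79.1, 15.1 and 17.4 in the DNFB arrays, 7.46, 20.3 and 18.0 in the BAC arrays and 60.7, 21.5 and 16.9 in the vehicle arrays. Lef1, an effector of WNT signals in the hair matrix, lay between 50.7 and 107 in all arrays and did not go with the keratins.

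Of 15 tested genes listed for shaft and sheath outside the keratins, 5 fell after DNFB and 4 after BAC, with no rise. Gsdma, Tgm3, Psors1c2 and Hrnr fell after both and Elovl3 after DNFB, while S100a3 and Tchh passed in neither. The list does not separate follicle genes from genes that other skin cells also make, so these falls cannot be placed in shaft or sheath. Gsdma, a gasdermin of skin and follicle, fell by 1.12 ± 0.16 after DNFB and by 0.99 ± 0.16 after BAC on the log2 scale. None met the 2-fold array pattern, which 0.184% of all tested genes met. Gsdma and S100a3 had its order, which 4.09% of all tested genes had. S100a3, a calcium-binding protein of the hair cuticle, had 431, 130 and 522 in the DNFB arrays, 123, 425 and 175 in the BAC arrays and 239, 255 and 456 in the vehicle arrays. Tchh, the sheath protein trichohyalin, had 86.7, 12.2 and 97.7 in the DNFB arrays, 51.6, 130 and 52.5 in the BAC arrays and 46.8, 42.0 and 95.8 in the vehicle arrays. Its low arrays were partly those of the keratins, apart from vehicle replicate 2. In the list of bulge and outer root sheath genes, Krt15 and Krt79 of 13 fell after both treatments and Lgr6 after BAC. Krt15, a keratin of basal and bulge cells, fell by 0.70 ± 0.16 and by 0.81 ± 0.16.

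Of 17 tested hair matrix and dermal papilla genes 4 fell and 1 rose after DNFB, and 2 fell and 1 rose after BAC, counts that moved with single arrays. Of 14 pigment cell genes 0 passed limma in any comparison, and at an unadjusted p under 0.05 there was 1 in DNFB against vehicle and 0 in each of the others. Tyr, the key enzyme of melanin synthesis, lay between 59.6 and 120 in all arrays. Of 17 cell division genes 1, Pcna, rose after DNFB and 0 passed limma after BAC (4 at an unadjusted p under 0.05), and Mki67, a marker of dividing cells, lay between 164 and 271. Other lists held 20 skeletal muscle, 14 cartilage, 8 adipocyte, 9 fibroblast and 11 sebaceous gland markers and 12 epidermal keratins, all tested. None of these genes, nor of the tested genes of the 3 lists above, met the 2-fold array pattern, which 0.184% of all tested genes met. Its order alone was found in Pmel of the pigment list and in Krt14 of the epidermal keratins, and in 4.09% of all tested genes. The epidermal keratin Krt5, which marks basal keratinocytes, had 6649, 5231 and 6922 in the DNFB arrays, 7455, 7478 and 6679 in the BAC arrays and 8369, 8194 and 8957 in the vehicle arrays. Of the 12 epidermal keratins 7 fell after DNFB, Krt5, Krt6a and Krt17 among them, and 3 did so in a fit without the intensity trend. After BAC 2 of them rose and 1 fell, and 6 were lower in DNFB than in BAC, where 3.66% of all tested genes were. Whole ear skin does not show which of these keratin signals came from the epidermis and which from the follicle. Of the 20 muscle genes 8 rose after DNFB and 0 passed limma after BAC (4 at an unadjusted p under 0.05). The summed signal of the muscle list lay between 81278 and 101834 in the DNFB arrays, 64759 and 98335 in the BAC arrays and 57441 and 75155 in the vehicle arrays. It was highest of all 9 arrays in DNFB replicate 2, where the members were low, and lowest in vehicle replicate 1, where they were low too. In the BAC group it was highest in replicate 3. The summed adipocyte signal was likewise highest in DNFB replicate 2, at 26927, and its highest BAC array was replicate 3, at 25465. The part of tissue makeup in the member values was not tested.

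**Figure D5:**
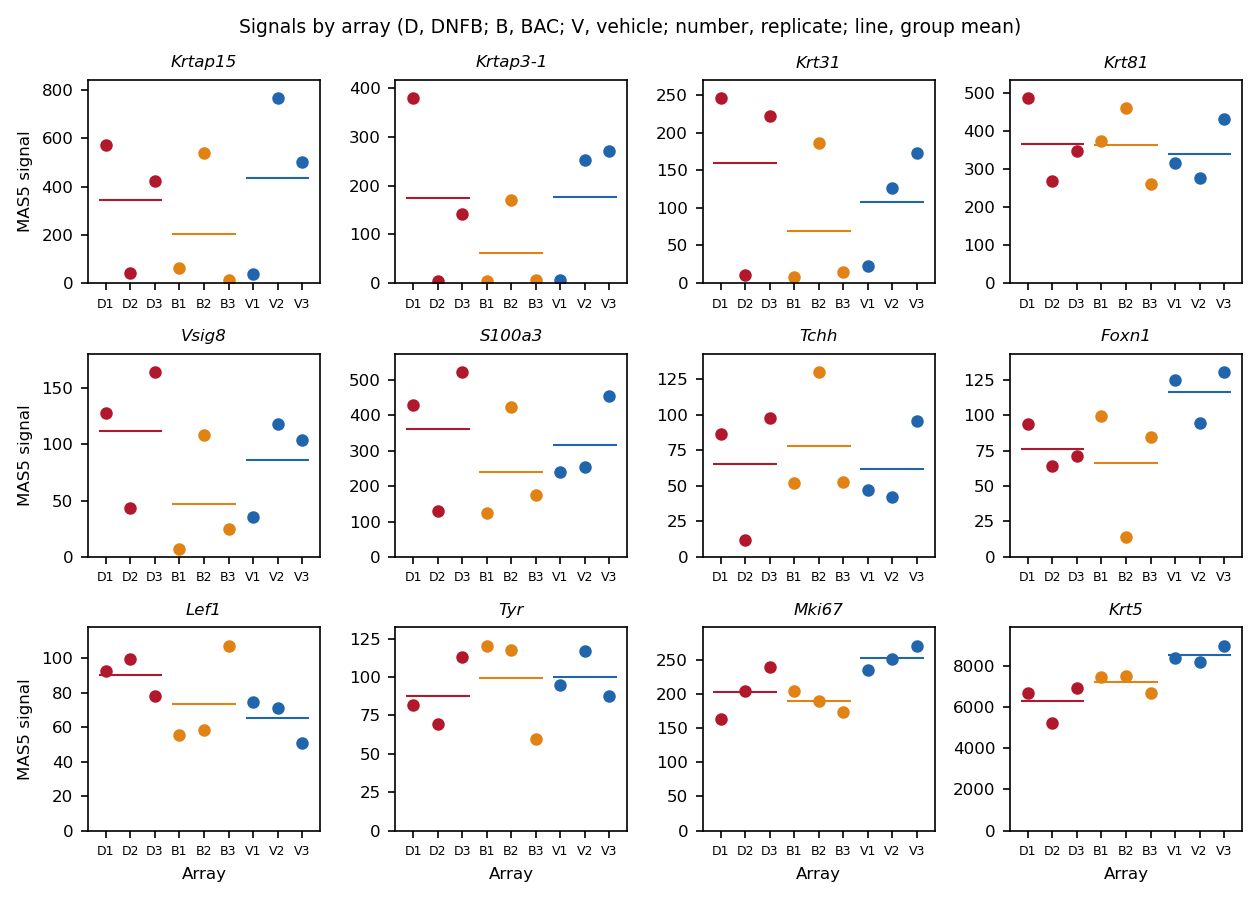
MAS5 signal in each array for 4 members (Krtap15, Krtap3-1, Krt31 and Krt81) and 8 other genes, with a line at each group mean (D, DNFB; B, BAC; V, vehicle). Krtap15, Krtap3-1, Krt31 and Vsig8 are low in D2, B1, B3 and V1, while Krt81, Foxn1, Lef1, Tyr, Mki67 and Krt5 do not repeat that pattern.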

How the data were processed

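Mouse ear skin RNA was amplified and labelled for 3' expression arrays, per the labels' protocols. The authors deposited linear intensities, a signal for each probe set on each array. MAS5 and the Affymetrix Expression Console are named in the submitters' processing notes. Each array had a mean of 250.001 after the highest and lowest 2% of probe sets were left out, so the authors' values had been scaled per array. Detection calls were not used here, and the number of arrays limits the precision.

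Probe sets were named through the platform annotation, and chromosomes came from RefSeq GRCm38.p6. All 63 member probe sets had a match there. Where a gene had several probe sets, the one with the highest mean on the log2 scale stood for it. Genes above the array's 40th percentile in at least 3 of 9 arrays were tested, 14122 in all. log2(signal + 16) was fitted with limma 3.58.1 in R 4.3.3, with 1 mean per treatment over all 9 arrays and an intensity trend in eBayes (6 residual degrees of freedom). P-values were two-sided and adjusted by Benjamini-Hochberg over the tested genes, with a threshold of 0.05. Changes on this scale understate those of dim genes. The computation was checked on simulated data with known changes, and the fitted changes followed the simulated ones. The simulated noise was independent between genes, unlike that of the members, so the check does not bear on the member results. With 3 arrays a group, exact permutation tests reach no lower p than 0.1 and were left out.

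Members, gene lists and the rule for named genes were chosen with earlier results of these data known. The rule took members past the threshold, a set of members given whatever their values, the members of largest and smallest spread and of highest signal, and the leading genes of each list. The 2-fold array pattern, the promoter motifs and the promoters shown were chosen after the values were seen. Group and replicate number came from the sample titles. Same-numbered arrays of different groups deviated from their group means with correlations between -0.12 and 0.15 over the tested genes, so the numbers were not taken to pair the arrays. Alternatives covered the pseudocount, filter, scaling, trend, choice of probe set, replicate block and each array left out.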

Additional observations from a re-analysis of the deposited data

How the results depend on the processing

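Dim signals limit these values, since many member signals lay under the 40th percentile of their array, and the pseudocount changes the size of the swings. The median residual SD of the tested members was 1.60 with a pseudocount of 1 and 0.71 with 64, and lay between 1.01 and 1.23 with 1 array left out. The 2-fold array pattern was met by 14 members and 14 genes in all with a pseudocount of 64. No member was called in any comparison under another pseudocount, filter, scaling, trend, choice of probe set or with every probe set as a feature. With the replicate number as a block, 0 members were called in each comparison, as without it, and 1874, 1939 and 860 genes were called in DNFB against vehicle, BAC against vehicle and DNFB against BAC. With 1 array left out, the count of called members lay between 0 and 1, between 0 and 4 and between 0 and 1 in these comparisons, and the highest counts came from fits that called 11.5%, 9.82% and 3.68% of all tested genes. The member median lay between -0.63 and 0.41, between -1.07 and -0.17 and between -0.12 and 0.90. Up to 26, 7 and 15 member signs turned with 1 array left out, and up to 1, 3 and 6 under the other settings. Krtap15 in DNFB against vehicle lay between -1.37 and 0.86 with 1 array left out. Gata3, Prdm1 and Gsdma kept their calls under the settings run, and Krt15 after DNFB missed the threshold without the trend (limma adjusted p = 0.0701). The falls among follicle transcription factors numbered 4 to 5 after DNFB and 4 to 6 after BAC with 1 array left out, and 2 after BAC where probe sets of a gene were averaged. The falls among bulge genes after BAC numbered 6 without BAC replicate 1, and those among shaft and sheath genes 2 after BAC without the trend. Falls among hair matrix genes after DNFB lay between 1 and 4, and after BAC between 0 and 2. The cause of these shifts was not tested beyond the arrays named.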
